A study of Mus musculus with 24 samples.

Results

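The transcripts of 6 desaturase genes, Scd1, Scd2, Fads1, Fads2, Fads3 and Degs1, were followed in 3T3-L1 adipocytes treated with a PPARδ or a PPARγ agonist. Every probe annotated to these genes was taken, which gave 8 probes of the 13964 in the data and 6 genes of 8389. 3T3-L1 is a mouse fibroblast line that turns into adipocytes after hormonal induction. At day 11 after induction, the cultures received medium with 100 nM insulin and either DMSO, the PPARδ selective agonist GW610742 or the PPARγ selective agonist GW347845 for 2 days, and there were 6 arrays in each group. The labels give 1 μM for GW610742 and 100 μM for GW347845, while the methods name 100 nM and 1 μM for the former and 10 and 100 nM for the latter, and which dose the arrays stand for is not settled. RNA was measured on Illumina bead arrays, where a brighter probe means more of its transcript. All values are on a log2 scale, and 1 unit is about a doubling.

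Desaturases are membrane enzymes of the endoplasmic reticulum that place a double bond in an acyl chain, and they draw electrons from cytochrome b5. Stearoyl-CoA desaturases turn saturated into monounsaturated fatty acids, the main products of fat synthesis in adipocytes. The FADS enzymes act on longer polyunsaturated or sphingoid chains, and the ceramide desaturase Degs1 completes ceramide from dihydroceramide. PPARs bind DNA together with the retinoid X receptor, at repeats of the letters AGGTCA.

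The authors normalized the arrays of each agonist together with the DMSO arrays, so the same 6 control hybridizations are present in 2 versions, and the comparisons share their controls. The methods call the hybridizations independent. The p-values rest on the spread between the arrays, and the number of arrays limits their precision. The cultures carried adipocyte transcripts in every group, with Adipoq, the gene of adiponectin, at 13.05 ± 0.45 (SD, n = 6) in the controls normalized with the PPARδ arrays. They also carried the preadipocyte gene Dlk1 at 14.46 ± 0.07 (SD, n = 6), and of 8 macrophage markers only Cd14 was measured here. Fewer cells of a type and less RNA per cell cannot be told apart in such samples. Replicates 1 to 3 and replicates 4 to 6 stood apart in adipocyte markers: the mean log2 value of 10 marker genes, used below as the marker level, was 9.91 to 10.29 and 9.46 to 9.59 in the controls, and 10.68 to 11.03 and 9.38 to 9.81 with the PPARγ agonist. The labels do not say whether the numbers mark different batches. Separate values are thus given beside the pooled ones of each agonist for the desaturases, and for other genes where they lie far apart.

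Scd1 makes the oleate and palmitoleate of stored fat. It had the widest spread of the desaturases and one of the widest on the arrays. In the controls normalized with the PPARδ arrays it ranged from 10.06 to 12.03 with a median of 10.86, and with the PPARδ agonist from 9.87 to 11.43 with a median of 11.08. In the controls normalized with the PPARγ arrays it ranged from 9.87 to 11.86 with a median of 10.68, and with the PPARγ agonist from 8.65 to 11.56 with a median of 9.87. The agonist arrays overlapped the controls in both comparisons. The SD over 6 arrays was 0.80, 0.61 and 1.40 in the controls, with the PPARδ agonist and with the PPARγ agonist, where the median SD of all probes was 0.083, 0.083 and 0.109. In the PPARγ agonist group no other probe of 13755 had a larger SD, and in the controls 3 of 13718 did. The probes of the other desaturases had SDs of 0.047 to 0.219, the highest that of Fads1 with the PPARγ agonist.

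**Figure D1:**
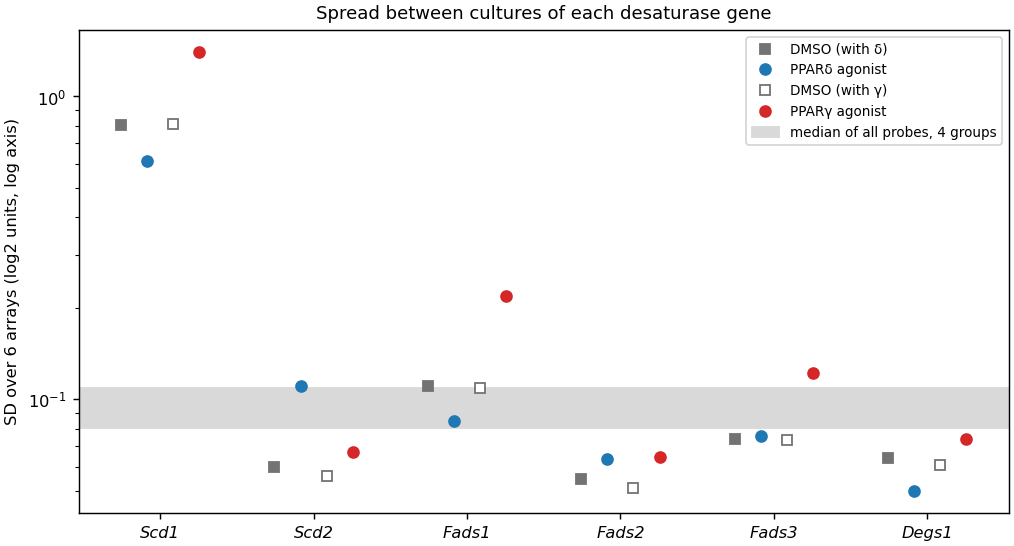
Standard deviation over the 6 arrays of each group (log axis, log2 units) for the brightest probe of each desaturase gene, with the range of the median SD of all probes in the 4 groups shaded. Scd1 stands between 0.61 and 1.40, far above the shaded range, and Fads1 with the PPARγ agonist is at 0.219.

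Pooled over 6 against 6 arrays, Scd1 did not pass the test with either agonist. The difference was -0.03 with the PPARδ agonist (standard error 0.31, 95% interval -0.67 to 0.62, limma adjusted p = 0.96) and -0.81 with the PPARγ agonist (standard error 0.54, 95% interval -1.96 to 0.34, adjusted p = 0.30). The wide intervals leave room for a change of more than 1 log2 unit in the latter. The pooled PPARγ value is the mean of unlike values in the replicates. In replicates 4 to 6 the agonist arrays read 8.75, 8.65 and 8.66 and their controls 10.22, 9.87 and 10.08, a fall of 2.58-fold without overlap (log2 difference -1.37, standard error 0.084, adjusted p = 9.2e-06). In replicates 1 to 3 the agonist arrays read 10.99, 11.10 and 11.56 and the controls 11.14, 11.39 and 11.86, with a difference of -0.24 that did not pass (adjusted p = 0.28). In these separate fits 19.2% and 23.8% of all probes passed. With the replicates 1 to 3 and 4 to 6 as a block, a fit chosen after seeing the data, the same -0.81 passed (adjusted p = 0.0024), beside 30.1% of all probes. For the PPARδ agonist the separate values were -0.44 (adjusted p = 0.19) in replicates 1 to 3 and 0.38 (adjusted p = 0.35) in 4 to 6, and neither passed. The difference between replicates 1 to 3 and 4 to 6 was not tested for either agonist.

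**Figure D2:**
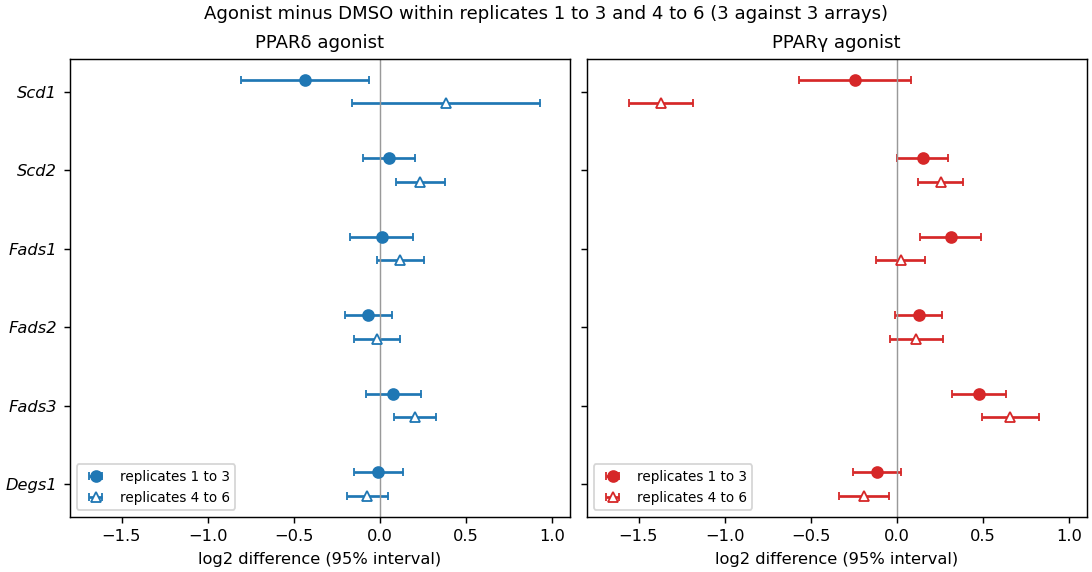
Log2 difference between agonist and DMSO arrays with its 95% interval, fitted within replicates 1 to 3 (circles) and within replicates 4 to 6 (triangles), 3 against 3 arrays, for the brightest probe of each desaturase. With the PPARγ agonist Scd1 was at -0.24 and -1.37, and Fads1 at 0.31 and 0.02, while Fads3 was at 0.47 and 0.66.

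The level of Scd1 went with the adipocyte markers of each array. Within the 6 arrays of the PPARδ agonist, the only group whose replicates 1 to 3 and 4 to 6 did not separate in marker level, Pearson's r was 0.96 (exact permutation p = 0.0042, adjusted over 6 relations p = 0.025) and Spearman's rho was 0.94 (exact permutation p = 0.017, adjusted p = 0.10). The smallest p this design can give is 0.0028, and over the 18 relations that had been planned the adjusted p of r is 0.075. Without the 2 arrays farthest from the median marker level r was 0.96. Scd1 was highest, at 11.36 to 11.43, on the arrays with marker levels of 10.17 to 10.40, and lowest, at 9.87, on the array with a marker level of 9.60. For the other 5 desaturases r was 0.07 to 0.62 with adjusted p of 0.55 to 0.88, two-sided. In the controls and the PPARγ agonist group no r is given, since the arrays lie in separate clusters. There the cluster with the lower marker level also had the lower Scd1: replicates 1 to 3 and 4 to 6 of the controls normalized with the PPARγ arrays had a mean Scd1 of 11.46 and 10.06, and those of the PPARγ agonist 11.22 and 8.69.

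**Figure D3:**
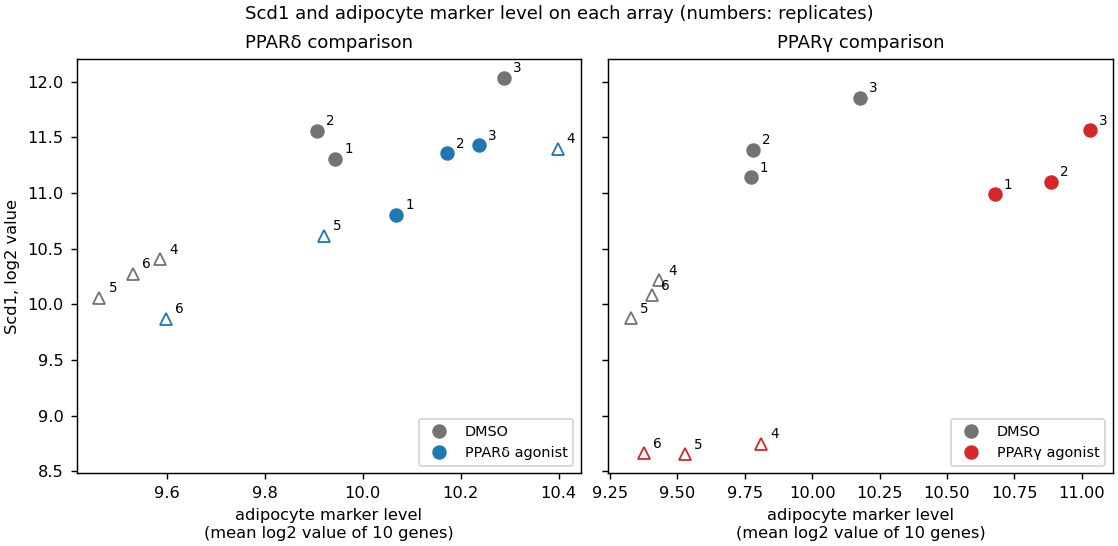
Scd1 (log2 value) against the adipocyte marker level (mean log2 value of 10 genes) of each array, with the replicate number beside each point, circles for replicates 1 to 3 and open triangles for 4 to 6. Replicates 4 to 6 of the PPARγ agonist lie at 8.65 to 8.75, at marker levels of 9.38 to 9.81; the controls 4 to 6 lie at 9.87 to 10.22 with marker levels of 9.33 to 9.43, and the controls 1 and 2 at 11.14 and 11.39 with 9.77 and 9.78.

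When the marker level was added to the fit, the fitted Scd1 was below the controls with both agonists. The difference was -0.68 with the PPARδ agonist (standard error 0.089, adjusted p = 8.9e-05) and -1.93 with the PPARγ agonist (standard error 0.13, adjusted p = 2.2e-09), beside 13% and 27.2% of all probes that passed in these fits. Each fit takes a common slope through all its arrays, also those of groups that lie in separate clusters. Scd1 rose by 2.32 and 1.98 for each unit of marker level. Within replicates 4 to 6 of the PPARγ agonist it read 8.75, 8.65 and 8.66 at marker levels of 9.81, 9.53 and 9.38. The PPARδ difference was -0.03 without the marker level, so the -0.68 depends on this slope, which was not tested within the clusters. The marker level itself was 0.28 higher with the PPARδ and 0.57 higher with the PPARγ agonist, by 0.95 in replicates 1 to 3 and 0.18 in replicates 4 to 6 of the latter. In the PPARγ comparison 3 agonist arrays had a marker level above every control, so the fitted value extends beyond the controls, and the markers include Pparg and Lpl and other genes that PPARs act on. The preadipocyte and fibroblast markers of replicates 1 to 3 of the PPARγ agonist were lower than in every control, at a mean of 10.22 to 10.30 over 15 genes against 10.41 to 10.52, and those of replicates 4 to 6 were at 10.44 to 10.53. In replicates 1 to 3 the collagens Col3a1 (-1.31) and Col1a2 (-0.75) lay farthest below their controls, and 6 of the 15 genes were above theirs. The median difference of the 15 genes there was -0.07. In replicates 4 to 6 these collagens were also low, at -1.02 and -0.67. Col1a1 (0.48), Fn1 (0.42) and Vim (0.40) were above their controls there, and the median was 0.06. Of 18 adipocyte markers 10 and 12 were measured in the PPARδ and PPARγ comparisons. In these 2 and 3 rose and none fell, where 8.26% and 10.2% of all genes rose. Fabp4, among the 3, had no value in the PPARδ comparison, which holds the same controls. It passed detection only through PPARγ agonist arrays, so its rise is not a separate result. Cidec (PPARδ, 0.81, adjusted p = 0.0496) was lost in 8 of 12 fits with 1 array left out. It had 0.36 in replicates 1 to 3 and 1.25 in 4 to 6. Gpd1 (PPARγ, 1.24, adjusted p = 0.031) was lost in 6 of 12, with 1.79 and 0.70. Also among the risen was Agpat2, an enzyme of triacylglycerol synthesis. It had 0.45 with the PPARδ agonist (adjusted p = 0.012), and its other probe did not pass (0.29, adjusted p = 0.15). It had 1.00 with the PPARγ agonist (adjusted p = 0.034, lost in 8 of 12 fits with 1 array left out), with 1.67 in replicates 1 to 3 and 0.32 in replicates 4 to 6. Of 15 preadipocyte and fibroblast markers, 1 rose and 2 fell with the PPARδ agonist, and none rose and 3 fell with the PPARγ agonist. That is 20% of the list in each, where 17% and 23% of all genes passed, and the median difference of the list was 0.01 and 0.05. Col3a1, a fibrillar collagen, fell by 1.16 with the PPARγ agonist (adjusted p = 4.4e-07) on its brighter probe, while its other probe did not pass (adjusted p = 0.29). The part of these cells in the Scd1 values was not tested.

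Scd2 is the stearoyl-CoA desaturase of brain and of early fat tissue in the mouse, and it lies in a cluster with Scd3, Scd4 and Scd1 on chromosome 19 in the RefSeq table (GRCm38.p6). In the controls normalized with the PPARγ arrays it ranged from 7.69 to 7.84 with a median of 7.71, and with the PPARγ agonist from 7.85 to 8.01 with a median of 7.93. Every agonist array lay above every control, and 11.9% of all probes had groups that did not overlap. The rise was 0.20 (standard error 0.044, 95% interval 0.11 to 0.29, adjusted p = 0.0035), 1.15-fold, and it passed with any 1 of the 12 arrays left out. Separately it was 0.15 in replicates 1 to 3 (adjusted p = 0.15) and 0.25 in replicates 4 to 6 (adjusted p = 0.011). Scd2 in the PPARδ agonist group ranged from 7.91 to 8.22 with a mean of 8.02, against 7.84 to 7.998 with a mean of 7.88 in its controls. All 6 agonist arrays lay above the control mean, but the difference of 0.14 (standard error 0.051) did not pass (adjusted p = 0.059). It passed without DMSO replicate 3 (adjusted p = 0.036) and without agonist replicate 2 (adjusted p = 0.040). Separately the PPARδ difference was 0.05 in replicates 1 to 3 (adjusted p = 0.73) and 0.23 in replicates 4 to 6 (adjusted p = 0.043). In these fits 2.06% and 10% of all probes passed. Across agonists the effects on Scd2 differed by 0.06 (95% interval -0.06 to 0.17, adjusted p = 0.44).

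**Figure D4:**
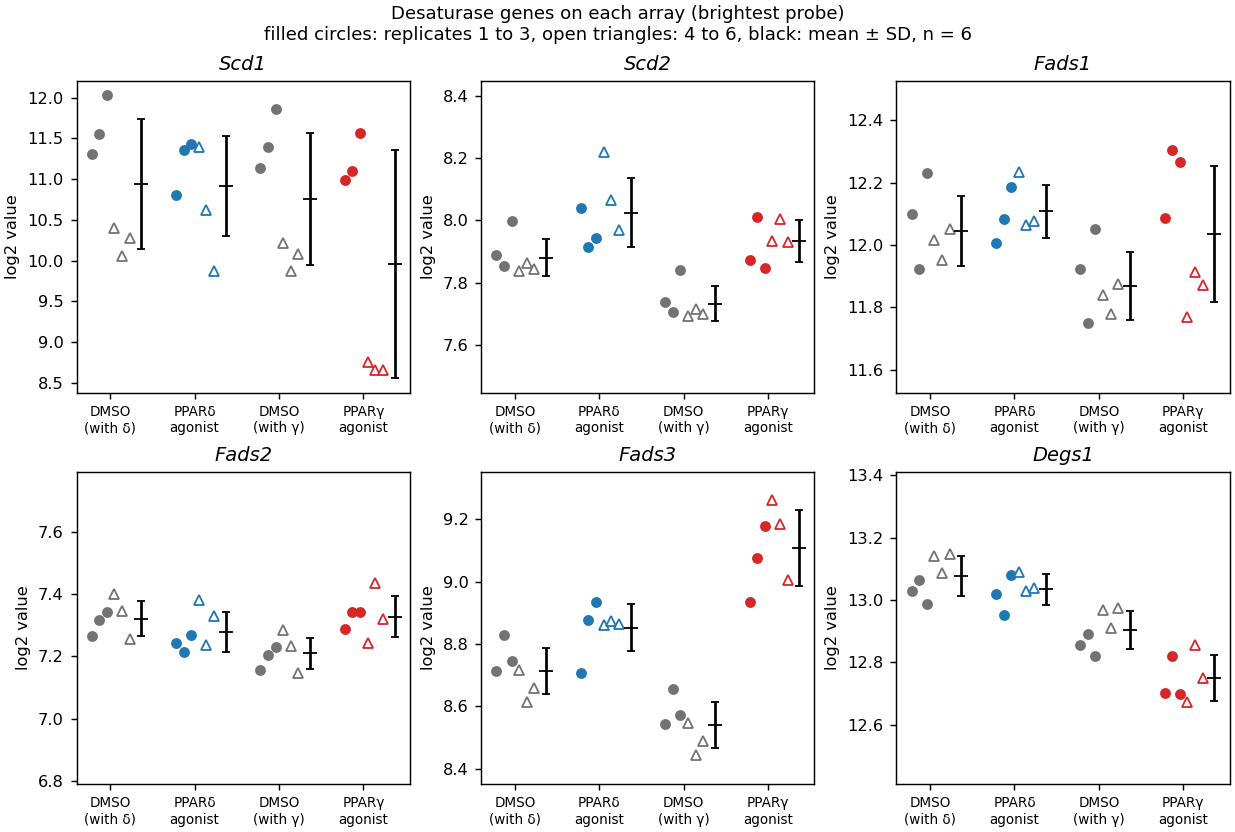
Log2 value of the brightest probe of each desaturase gene on every array, in the DMSO controls as normalized with either agonist and in the agonist groups, with the mean ± SD of 6 arrays in black. Circles are replicates 1 to 3 and open triangles replicates 4 to 6; each panel has its own axis, which spans at least 1 log2 unit. Fads3 and Scd2 with the PPARγ agonist lie above all their controls, and Scd1 splits into values of 10.99 to 11.56 and 8.65 to 8.75.

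Fads3 had the smallest adjusted p of the desaturases with both agonists. Its protein belongs to the FADS family and, in human cells, desaturates the sphingoid base of ceramides. In the controls normalized with the PPARγ arrays it ranged from 8.44 to 8.66 with a median of 8.54, and with the PPARγ agonist from 8.94 to 9.26 with a median of 9.13. The groups were well apart. The rise was 0.57 (standard error 0.058, 95% interval 0.44 to 0.69, adjusted p = 4.2e-06), or 1.48-fold, and it passed with any 1 of 12 arrays left out, in replicates 1 to 3 (0.47, adjusted p = 0.00018), in replicates 4 to 6 (0.66, adjusted p = 0.00012) and with the marker level in the fit (0.57, adjusted p = 1.3e-06). Under the PPARδ agonist Fads3 ranged from 8.71 to 8.93 with a median of 8.87, against 8.61 to 8.83 with a median of 8.72. Replicate 1 of the agonist lay at the level of the controls and the other 5 above all of them. The rise of 0.14 (standard error 0.046, 95% interval 0.04 to 0.24) was at the threshold (adjusted p = 0.046). It passed in 2 of the 12 fits with 1 array left out, namely without DMSO replicate 2 or agonist replicate 1, and was lost without any of the others (adjusted p of 0.055 to 0.11), in replicates 1 to 3 (0.08, adjusted p = 0.63) and with the marker level in the fit (0.11, adjusted p = 0.16). In replicates 4 to 6 it was 0.20 (adjusted p = 0.039). In the separate PPARδ fits 2.06% and 10% of all probes passed. The response to the PPARγ agonist exceeded that to the PPARδ agonist by 0.43 (standard error 0.058, adjusted p = 4.7e-05), in a test of treated arrays minus the mean of their own controls that leaves out the spread of the controls.

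Promoters were looked at because Fads3 rose and Degs1 fell with the PPARγ agonist. RefSeq windows of 300 bases, from 250 before to 50 after the start, were at hand for 3 of the 6 genes, Fads2, Fads3 and Degs1 (GRCm38.p6). Those of Fads3 (chr19:10041298-10041597, plus strand) and Degs1 (chr1:182282146-182282445, minus strand) are printed 5′ to 3′, with matches to CCAAT on either strand in capitals.
Fads3: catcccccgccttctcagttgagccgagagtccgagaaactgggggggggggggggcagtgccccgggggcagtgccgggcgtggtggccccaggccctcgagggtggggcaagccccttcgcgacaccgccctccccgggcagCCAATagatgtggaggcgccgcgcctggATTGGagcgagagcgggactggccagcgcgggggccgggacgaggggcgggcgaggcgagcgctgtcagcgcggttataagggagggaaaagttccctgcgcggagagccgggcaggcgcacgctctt
Degs1: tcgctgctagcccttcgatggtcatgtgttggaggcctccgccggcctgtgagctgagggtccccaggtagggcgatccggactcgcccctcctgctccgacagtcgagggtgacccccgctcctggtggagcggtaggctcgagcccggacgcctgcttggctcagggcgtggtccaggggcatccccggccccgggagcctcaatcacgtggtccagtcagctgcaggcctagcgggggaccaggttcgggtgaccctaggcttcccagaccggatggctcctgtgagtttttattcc
None of the 3 windows holds AGGTCA on either strand, which 16.3% of 32851 promoters do, nor its direct repeat with any 1 base between, which 0.0396% do. Fads3 has 2 matches to CCAAT, 1 on each strand, a motif found in 37.4% of promoters, and Fads2 and Degs1 have none. A match is a description of the letters in these windows. An exact repeat is so rare that its absence from 3 windows decides nothing, and sites elsewhere in the genes were not searched. According to the authors, a PPAR response element is known in the gene of the Δ6-desaturase (Fads2).

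Fads2 carries out the entry step of polyunsaturated fatty acid synthesis, and its gene lies between Fads3 and Fads1 on chromosome 19. Its 2 probes match the same transcript record. Both are dim, among the 25% of probes with the lowest mean in the PPARδ comparison. Under the PPARγ agonist the brighter probe ranged from 7.24 to 7.43 with a median of 7.33, against 7.15 to 7.28 with a median of 7.22 in the controls, and the other from 7.14 to 7.48 with a median of 7.31, against 7.03 to 7.29 with a median of 7.14. All 6 agonist arrays lay above the control mean on the brighter probe and 5 on the other. The differences were 0.12 (standard error 0.043, adjusted p = 0.057) and 0.16 (standard error 0.058, adjusted p = 0.061), and neither passed. Separately the brighter probe had 0.13 in replicates 1 to 3 and 0.11 in 4 to 6, and the other 0.16 and 0.15. None of these passed (adjusted p of 0.13 to 0.31). The differences of the PPARδ agonist were -0.04 (adjusted p = 0.51) and -0.03 (adjusted p = 0.79). Separately they were -0.07 and -0.02 on the brighter probe and -0.03 and -0.02 on the other (adjusted p of 0.62 to 0.91). The agonists differed on both probes, by 0.16 (standard error 0.045, adjusted p = 0.014) and 0.18 (standard error 0.063, adjusted p = 0.041). The former passed with any 1 of 18 arrays left out, the latter in 9 of 18 (adjusted p up to 0.088). Neither passed in replicates 4 to 6 alone (adjusted p = 0.25 and 0.20).

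Fads1, which makes arachidonate from the products of Fads2, also has 2 probes. The brighter one ranged from 11.77 to 12.30 with a mean of 12.04 with the PPARγ agonist, against 11.75 to 12.05 with a mean of 11.87 in the controls, and the difference of 0.17 did not pass (standard error 0.088, 95% interval -0.02 to 0.35, adjusted p = 0.19). As with Scd1 the agonist replicates fell into separate clusters, but those of the Fads1 controls overlapped. Agonist replicates 1 to 3 read 12.09, 12.30 and 12.27 against 11.92, 11.75 and 12.05, a rise of 0.31 (standard error 0.083, adjusted p = 0.012), and replicates 4 to 6 differed from theirs by 0.02 (95% interval -0.12 to 0.16, adjusted p = 0.85). With the PPARδ agonist the difference was 0.06 (95% interval -0.05 to 0.18, adjusted p = 0.44). Separately it was 0.01 in replicates 1 to 3 (adjusted p = 0.97) and 0.12 in replicates 4 to 6 (adjusted p = 0.25). The second probe, which matches another transcript record, read 6.59 to 6.96 over all arrays, near the lowest array values of 6.33 and 6.25. It had 0.01 (adjusted p = 0.93) with the PPARδ and 0.05 (adjusted p = 0.55) with the PPARγ agonist. In the separate fits its differences were -0.02 to 0.09, and none passed.

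Degs1, the dihydroceramide desaturase, was the only one of the 6 with a called fall in the pooled fits without a block or covariate. The PPARγ agonist arrays ranged from 12.67 to 12.86 with a median of 12.73, against 12.82 to 12.97 with a median of 12.90 in the controls. All 6 agonist arrays lay below the control mean, and the groups overlapped. It fell by 0.15 (standard error 0.046, 95% interval -0.25 to -0.06, adjusted p = 0.024). The call was lost without DMSO replicate 4 (adjusted p = 0.057), DMSO replicate 6 (adjusted p = 0.059) or agonist replicate 1 (adjusted p = 0.0502), in replicates 1 to 3 (-0.12, adjusted p = 0.24) and 4 to 6 (-0.19, adjusted p = 0.067), and with the marker level in the fit (-0.13, adjusted p = 0.075). With the PPARδ agonist Degs1 ranged from 12.95 to 13.09 with a median of 13.03, against 12.99 to 13.15 with a median of 13.08, and had -0.04 (95% interval -0.13 to 0.05, adjusted p = 0.52). Separately the PPARδ difference was -0.01 in replicates 1 to 3 (adjusted p = 0.96) and -0.07 in replicates 4 to 6 (adjusted p = 0.42). The effects of the agonists on Degs1 differed by -0.11 (95% interval -0.21 to -0.02), which did not pass (adjusted p = 0.070).

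By gene, 1 of the 6 desaturases rose and none fell with the PPARδ agonist, where 17% of all 8289 genes passed and 8.26% rose, and of all probes 17.1% passed and 8.19% rose. No desaturase was without overlap, against 6.43% of all probes. For the PPARγ agonist 2 rose and 1 fell, where 23% of 8297 genes passed (10.2% rose and 12.8% fell), and 23.9% of probes (10.4% and 13.5%). The median difference over the 6 genes was 0.02 and 0.14, and over all genes -0.01 and 0.03. In the direct comparison of the agonists Fads2 and Fads3 passed, 2 of the 6 genes, where 27.8% of all genes did, and 29.4% of probes. In that comparison Scd1 had -0.78 (95% interval -1.87 to 0.31, adjusted p = 0.26) and Fads1 had 0.10 (95% interval -0.08 to 0.28, adjusted p = 0.37). The difference for Scd1 was 0.19 (adjusted p = 0.39) in replicates 1 to 3 alone and -1.75 (adjusted p = 0.0012) in replicates 4 to 6 alone. That for Fads1 was 0.30 (adjusted p = 0.0081) in the former and -0.10 (adjusted p = 0.38) in the latter.

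**Figure D5:**
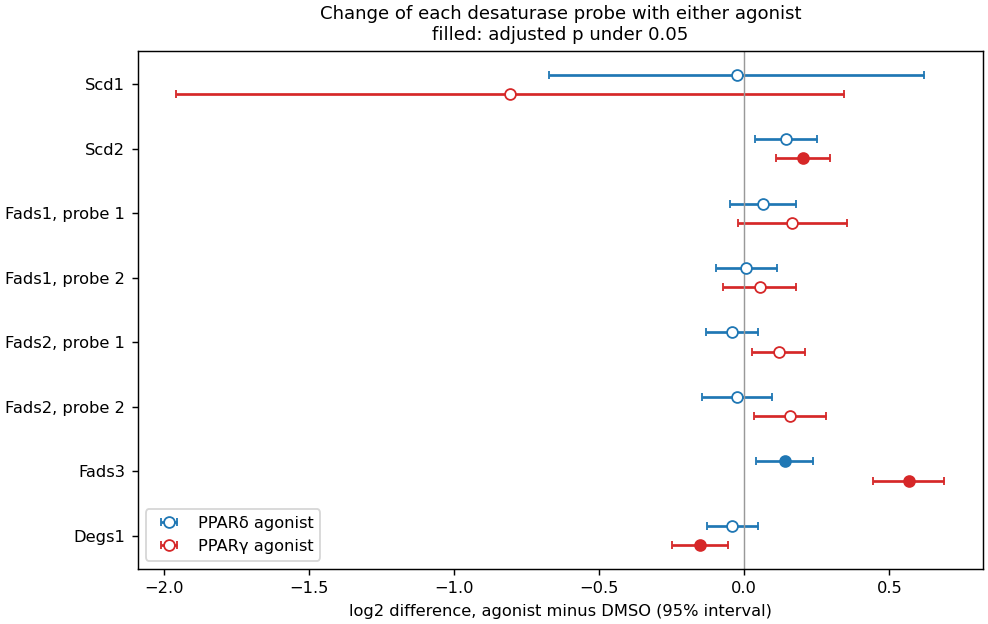
Log2 difference between agonist and DMSO arrays with its 95% interval (6 against 6 arrays) for each of the 8 desaturase probes. Filled points passed at an adjusted p under 0.05: Fads3 with both agonists (0.14 and 0.57), and Scd2 (0.20) and Degs1 (-0.15) with the PPARγ agonist.

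Desaturases take electrons from NADH through cytochrome b5 reductases and cytochrome b5. Of 7 measured genes of the cytochrome b5 and cytochrome b5 reductase families, none passed with the PPARδ agonist, where 17% of all genes did. The differences were -0.14 to 0.14. With the PPARγ agonist Cyb5r1, a reductase of this family, fell by 0.69 (standard error 0.12, adjusted p = 0.00050), with all agonist arrays below the controls, and the other 6 did not pass, where 23% of all genes did. Cyb5a, the main microsomal cytochrome b5, had -0.26 (adjusted p = 0.070), and Cyb5r3, its main reductase, had -0.15 (adjusted p = 0.098). Of the other desaturases fixed as a list, Sc5d, which acts on sterols, and Tmem189, which makes plasmalogens, were measured and neither passed with either agonist.

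Elongases lengthen the chains that desaturases act on. Of 10 elongation genes, none rose and 1 fell with the PPARδ agonist, and 1 rose and none fell with the PPARγ agonist, which is 10% in each, below the 17% and 23% of all genes. The latter was Hsd17b12, the reductase of the elongation cycle, with 0.45 (standard error 0.13, adjusted p = 0.022), a call lost without DMSO replicate 6 (adjusted p = 0.053), and 0.68 in replicates 1 to 3 against 0.22 in replicates 4 to 6. The former was Hacd4, a dehydratase of the same cycle, with -0.16 (adjusted p = 0.030), which lost its call without DMSO replicate 3, DMSO replicate 6, agonist replicate 1 or agonist replicate 4 (adjusted p up to 0.072). Elovl6, the elongase that makes stearate for Scd1, had 0.08 (adjusted p = 0.35) with the PPARδ and -0.03 (adjusted p = 0.86) with the PPARγ agonist.

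Fatty acid synthesis and its transcription factors supply and control the substrates of Scd1. Of 14 genes measured, 1 rose and 1 fell with the PPARδ agonist, 14.3% of them beside 17% of all genes. Me1, the malic enzyme that yields NADPH, rose by 0.50 (standard error 0.064, adjusted p = 0.00013) with no overlap. Insig2, which holds the SREBP precursor in the endoplasmic reticulum, had -0.20 (adjusted p = 0.047), a call lost in 8 of 12 fits with 1 array left out. Of 15 measured with the PPARγ agonist, 6 rose and 3 fell, where 10.2% and 12.8% of all genes did. The median difference was 0.18, the value of Mlxipl. Mlxipl, among the 6, had no value in the PPARδ comparison, which holds the same controls. It passed detection only through PPARγ agonist arrays, so its rise is not a separate result. Insig2 fell by 0.39 (standard error 0.081, adjusted p = 0.0025) on its brighter probe, and its other probe did not pass (adjusted p = 0.26). Srebf2, the sterol regulator of that family, rose by 0.20 on its brighter probe (standard error 0.043, adjusted p = 0.0030), and its other probe had 0.14 (adjusted p = 0.064). The probes of Insig1 disagreed: the brightest fell by 0.52 (adjusted p = 0.0054), and another rose by 0.63 (adjusted p = 0.036).

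Degs1 and Fads3 act on ceramides, whose synthesis starts with serine palmitoyltransferase. Of 20 genes of ceramide and sphingolipid metabolism, 2 rose and 2 fell with the PPARδ agonist, and 5 rose and 1 fell with the PPARγ agonist. That is 20% and 30% of the list, where 17% and 23% of all genes passed, and the median difference was -0.03 and 0.06. Sptssa, the small subunit of serine palmitoyltransferase, fell by 0.97 with the PPARγ agonist (standard error 0.11, adjusted p = 1.1e-05) and all its agonist arrays lay below the controls. Sptlc1, a large subunit of that enzyme, rose by 0.24 (standard error 0.066, adjusted p = 0.015), with 0.08 in replicates 1 to 3 and 0.40 in replicates 4 to 6. Ormdl3, which inhibits it, rose by 0.33 (standard error 0.081, adjusted p = 0.0077), with 0.46 and 0.21. With the PPARδ agonist Sgpl1, the lyase that ends the pathway, rose by 0.21 on its brighter probe (standard error 0.041, adjusted p = 0.0023), and its other probe had -0.09 (adjusted p = 0.15). Smpd4, a neutral sphingomyelinase, had 0.18 (adjusted p = 0.041) and Asah1, the acid ceramidase, -0.15 (adjusted p = 0.041), and these calls were lost in 8 and 9 of 12 fits with 1 array left out.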

How the data were processed

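Total RNA of 18 cultures was hybridized to Illumina mouse arrays. Per the labels and methods, the authors used lumi and limma in R, with a detection threshold of 0.01, variance stabilization and quantile normalization of each agonist with its controls. The deposited values are log2 values and were used as they are. The file holds 13964 probes in 24 columns, all of this study, with 13718 probes valued in the PPARδ and 13755 in the PPARγ comparison. Of the probes 12157 carry 1 gene symbol, 4 several and 1803 none.

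Agonists were compared with their own controls by linear models of limma 3.58.1 in R 4.3.3 with moderated variances, two-sided, with Benjamini-Hochberg adjustment over all probes and a threshold of 0.05. For the agonists against each other, the mean of the own controls was first subtracted from each treated array (13509 probes). For lists, the brightest probe on average stands for a gene. Correlations used scipy 1.17.1 and exact permutation, and figures matplotlib 3.10.9 in Python 3.11.15. Fits were tested on simulated data with independent noise on each array. These data held no clusters of replicates, so the test does not cover that feature of the arrays.

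The desaturases, the lists, the split into replicates 1 to 3 and 4 to 6 and the tests were chosen with earlier results of these data known. Named genes are every desaturase probe, up to 3 genes per list and comparison by smallest adjusted p, lists described by their counts, and for each desaturase the 3 genes with the highest correlation over the arrays of both comparisons. Cyb5a, Cyb5r3 and Elovl6 were chosen for their roles, after their values were seen. Mlxipl was named because it had values in the PPARγ comparison only. The authors' pooling or batches of arrays are not given in the sources used here. Promoters come from RefSeq (GRCm38.p6). Alternatives were an unadjusted p, the t-test that the methods name for univariate comparisons, the replicate number as a block, another variance prior, array weights, leaving out dim probes or single arrays, cyclic loess, median centring and the marker level as a covariate.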

Additional observations from a re-analysis of the deposited data

Results flagged for a closer look

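In 3 of 32 sets of 6 values, an array lay farther from the nearest other array than Dixon's 95% critical value allows. Chance gives about 1 in 20 for separate sets, but the 32 hold the shared controls in both normalized versions. Scd2 was highest in DMSO replicate 3, at 7.998 and 7.84 in the 2 normalized versions of that hybridization, and Fads3 was lowest in PPARδ agonist replicate 1, at 8.71. Without that DMSO array the PPARδ difference of Scd2 was 0.17 (limma adjusted p = 0.036).

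The agonists differed in their effect, in limma after subtracting the control mean, for Fads3 by 0.43 (PPARγ minus PPARδ, higher in 6 of 6 PPARγ arrays) and for both probes of Fads2, by 0.16 and 0.18.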

How the results depend on the processing

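The PPARγ call of Fads3 and its difference between the agonists held under every alternative run, and no called value changed its sign. The number of desaturase genes that passed with the PPARδ agonist was 0 with the robust variance prior, with the adjusted t-test and in replicates 1 to 3, and 2 with array weights, cyclic loess, the unadjusted t-test, an unadjusted p and in replicates 4 to 6. With the PPARγ agonist it was 5 with array weights, which added Fads1 and Fads2. The methods' t-test without adjustment gave 4143 probes with the PPARδ agonist (1824 rose, 2319 fell), 2492 that rose with the PPARγ agonist and 3224 that were higher with PPARγ than with PPARδ. An unadjusted p gave 4417 (2005 rose, 2412 fell), 5007 with 2671 that rose, and 3373. Replicates 1 to 3 alone gave 283 PPARδ probes (191 rose, 92 fell), and replicates 4 to 6 alone 1377 (729 rose, 648 fell) and 1138 higher with PPARγ. Array weights gave 2202 probes that rose with the PPARγ agonist. With each array left out, 1672 to 2456 probes passed with the PPARδ agonist (840 to 1152 rose, 832 to 1304 fell) and 0 to 1 desaturases, 2654 to 4013 with the PPARγ agonist (991 to 1966 rose, 1659 to 2047 fell) and 2 to 4 desaturases, and 3262 to 4397 in the difference (1408 to 2335 higher, 1822 to 2062 lower) and 2 to 3 desaturases. The cause of these shifts was not tested. Median centring could not change values that were quantile normalized.

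The labels do not say that a replicate number marks a shared batch. Same-numbered control and agonist arrays correlated in their deviations from the group means by -0.23 to 0.29 with the PPARδ agonist, where 3 of 12 arrays correlated best with their own number, and by -0.01 to 0.54 with the PPARγ agonist, where 7 of 12 did. Since not every pair was above 0.1, the arrays were not treated as paired, though the PPARγ values hint at a shared part. With the replicate number as a block, 2263 and 3751 probes passed and 0 and 4 desaturases. Scd1 then passed with the PPARγ agonist (-0.81, adjusted p = 0.0052). Low signal limits the second probe of Fads1 and both probes of Fads2, which the filter on dim probes left out of the PPARδ comparison.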

Other observations

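The genes whose values followed each desaturase most closely were found by the lower of 2 Pearson correlations over 8197 genes, one over the 12 arrays of each comparison. These correlations are descriptions across arrays that share controls and treatment. The arrays also include the controls and the PPARγ agonist group, whose replicates lie in separate clusters of marker level. For that reason no r with the marker level was given for those groups above. How far these clusters account for the correlations below was not tested. Scd1 was followed by Amy2a5 (0.93 and 0.92), an amylase, Aoc3 (0.92 and 0.94), an amine oxidase of adipocytes, and Hsd11b1 (0.91 and 0.97), which regenerates active glucocorticoid. None of the 3 passed the test with either agonist. Scd2 was followed by the integrin gene Itgb1, by Ppcdc, an enzyme of coenzyme A synthesis, and by Ciao3 (0.82 to 0.94), and Itgb1 and Ppcdc rose with both agonists. Fads1 was followed by Rasl12 and the histone genes H4c12 and H4c9 (0.87 to 0.95), whose near-identical copies may share probes. Fads3 was followed by Atp13a3, Sh3rf1 and the glycolytic gene Aldoa (0.79 to 0.95), and Aldoa rose by 0.31 and 0.66. Fads2 was followed by Alg9, Akap2 and Adh1, and Degs1 by Cst3, Pi16 and Dpp7, with correlations of 0.72 to 0.83.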
